A study of Homo sapiens with 15 samples.

Results

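The expression of 9 genes of fibroblast growth factor (FGF) signaling was followed in BEAS-2B cells during long-term exposure to PET-NPLs: the ligands FGF1, FGF2, FGF5 and FGF7, the receptors FGFR1, FGFR2 and FGFR3, the heparan sulfate coreceptor GPC1 (glypican 1), and the feedback inhibitor SPRY4. They were the rows of the gene count table whose Entrez numbers carry these symbols, 9 of 28395 genes. All 9 were in the table, and 8 of them passed the filter on low counts together with 16740 genes in total; FGF7 did not. The 9 genes were named in advance and not by their values, but with earlier results of these data known. FGF2 and GPC1 also belong to a panel of epithelial to mesenchymal transition genes from a public collection. The study filtered that panel by trends in these same samples, so their changes at 30 weeks are not independent evidence of a direction. By its own fit, the study lists both among putative biomarkers that changed significantly at 15 and 30 weeks. The main test used here called both at 30 weeks and neither at 15 weeks.

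FGF ligands are small secreted proteins that bind receptor tyrosine kinases of the FGFR family. Binding needs heparan sulfate, the sulfated sugar chain that glypicans, syndecans and other proteoglycans carry on the cell surface and in the matrix. Once joined in pairs, the receptors signal through docking proteins to the MAP kinase cascade, and Sprouty proteins and dual-specificity phosphatases, themselves induced by that cascade, damp it. In the airway, epithelial cells carry a splice form of FGFR2 that responds to FGF7 from the surrounding mesenchyme, whereas mesenchymal cells carry splice forms that respond to FGF2.

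BEAS-2B is an immortalized line of human bronchial epithelial cells, and PET-NPLs are nanoplastic particles made from polyethylene terephthalate water bottles. Cells received no particles (control) or 50 µg/mL of PET-NPLs for 24 h, 15 weeks or 30 weeks, with controls passaged in parallel. RNA-seq covered 2 samples of each arm at 24 h and again at 15 weeks, and 3 controls and 4 exposed samples after 30 weeks. Neither the labels nor the methods say whether samples of a group came from separate cultures, so p-values measure the spread between these samples only, which may be technical.

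Depth ran from 23143202 to 31459990 counts per sample, with a median of 28605451. Levels are given as CPM, counts scaled so that every library has the same total, after TMM scaling, which corrects each library for its composition. Batch 1 of the labels holds all samples of 24 h and 15 weeks, and batch 2 all those of 30 weeks. Exposed and control cells of a time point therefore share a batch, whereas the step from 15 to 30 weeks and the batch cannot be told apart. Exposed replicate 2 at 30 weeks stood apart from the other exposed samples, with correlations of log2 CPM across genes of 0.976 to 0.981, while the others of that group reached up to 0.992. Where leaving it out changed a call of a member, both values are given.

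The cells did not carry the whole set of epithelial markers. EPCAM, CDH1, KRT5, TP63 and GRHL2 stayed under 1 CPM in all 15 libraries, and KRT5, TP63 and GRHL2 were at 0 in 11, 10 and 13 of them. Keratins carried the epithelial signal: the summed level of 12 epithelial markers was 2101 to 2396 CPM at 24 h, led by KRT7, and 858 to 1066 CPM at 15 weeks, led by KRT8. At 30 weeks it was 322.5 to 416.2 CPM in control cells, led by KRT18, and 907.1 to 1122 CPM in exposed cells, led by KRT8.

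Genes of another lineage separated the 30-week groups as well. The summed level of 14 skeletal muscle markers was 371.1 to 444.3 CPM in 30-week controls, led by TNNT1, against 76.85 to 94.52 CPM in exposed cells and 110.5 to 180.3 CPM at the earlier times, led by TTN. MYOD1, the transcription factor that defines the muscle lineage, had 65.8 to 106 CPM in the controls and at most 0.761 CPM in exposed cells, while MYF5 and MYF6 were at 0 in every library. Of the 14 muscle markers 8 were above 1 CPM in each 30-week control and 3 or 4 in the exposed samples, and some of them, such as MYOG and DES, passed the filter on low counts through the 30-week controls. Of the 12 epithelial markers 5 or 6 were above 1 CPM in the 30-week controls and 6 or 7 in exposed cells. The 9 fibroblast markers summed to 1949 to 2479 CPM in controls and 1608 to 1831 CPM in exposed cells, led by VIM, but their members went both ways. COL1A1 had 21.5 to 89.0 CPM in the controls and 5.88 to 10.1 CPM in exposed cells, whereas COL1A2 had at most 0.65 CPM in the controls and 1.74 to 5.01 CPM in exposed cells.

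The composition of the libraries moved as well. The 6 most abundant small noncoding RNAs took 31.03%, 22.3% and 26.8% of the counts in the 30-week controls, 17.0% to 21.5% in the exposed samples and 9.75% to 12.9% at the earlier times. Without these RNAs in the counts the calls of FGF2, FGFR2, FGFR3 and GPC1 at 30 weeks held. The marker lists and the small RNAs move with the 30-week comparison for every gene described here, and their part in it was not tested.

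The promoter letters of the 4 members that differed between exposed and control cells at 30 weeks are shown, since these 4 carry the main result. They were read from RefSeq (GRCh38.p14), 5′ to 3′ on the strand of each gene, and end where the RefSeq gene begins. The lines cover chr4:122826581-122826681 on the plus strand for FGF2, chr10:121598459-121598694 on the minus strand for FGFR2, chr4:1793043-1793292 on the plus strand for FGFR3 and chr2:240435413-240435662 on the plus strand for GPC1. Capitals mark the GC box, the letters GGGCGG on either strand.
FGF2: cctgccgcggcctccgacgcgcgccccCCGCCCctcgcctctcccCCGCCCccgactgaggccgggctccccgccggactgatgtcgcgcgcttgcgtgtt
FGFR2: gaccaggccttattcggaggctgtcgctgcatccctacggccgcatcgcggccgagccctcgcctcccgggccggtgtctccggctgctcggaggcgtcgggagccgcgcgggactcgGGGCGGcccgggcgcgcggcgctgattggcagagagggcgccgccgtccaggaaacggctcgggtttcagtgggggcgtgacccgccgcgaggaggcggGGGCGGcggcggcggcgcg
FGFR3: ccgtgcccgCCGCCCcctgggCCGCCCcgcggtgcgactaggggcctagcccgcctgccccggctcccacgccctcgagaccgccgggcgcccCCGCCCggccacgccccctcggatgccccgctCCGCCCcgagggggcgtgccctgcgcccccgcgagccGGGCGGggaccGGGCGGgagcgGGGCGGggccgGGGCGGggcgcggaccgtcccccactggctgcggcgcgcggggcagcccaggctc
GPC1: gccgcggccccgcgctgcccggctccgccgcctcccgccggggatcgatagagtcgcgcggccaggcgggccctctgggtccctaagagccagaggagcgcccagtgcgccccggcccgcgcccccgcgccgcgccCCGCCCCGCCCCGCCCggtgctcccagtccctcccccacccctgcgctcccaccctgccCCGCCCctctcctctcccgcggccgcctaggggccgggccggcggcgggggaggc

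The GC box, which Sp1-type factors bind, occurred 2 times in the letters of FGF2, 2 times in those of FGFR2, 8 times in those of FGFR3 and 4 times in those of GPC1, with overlapping matches counted separately. Over the full windows of 250 bases before the table's gene start the counts were 3, 3, 8 and 4. It was present in 42.6% of 35116 RefSeq promoters of 250 bases. The AP-1 letters TGANTCA, the E-box CAGCTG, the ETS letters CCGGAAG and the EGR1 letters GCGTGGGCG were searched on both strands in the windows of 250 bases that the promoter table gives before its own start of each gene, and did not occur in these 4. Of these windows 101 bases for FGF2 and 236 bases for FGFR2 lie before the RefSeq gene and the rest within it. They were found in 6.57%, 14%, 8.52% and 0.72% of the promoters. GC content of the windows was 75.2% for FGF2, 78.4% for FGFR2, 86.8% for FGFR3 and 84.0% for GPC1, against a median of 58.0%. A match is a description of the letters only. Of the 9 members 8 had an entry in the table, and FGFR1 did not.

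Exposed and passage-matched control cells were compared at each time, so that both arms had the same time in culture. Since separate cultures are not documented, the particles and a difference between the cultures of the 2 arms cannot be told apart. The exposure effect below names the difference between the arms only. At 30 weeks FGF2, FGFR2 and FGFR3 were higher in exposed than in control cells, by 1.87- to 2.14-fold, and GPC1 was lower by 2.32-fold. FGF1, FGF5, FGFR1 and SPRY4 did not pass the test. That is 4 of 8 tested members called at an adjusted p under 0.05, 3 higher and 1 lower, where 23.7% of all 16740 genes were called, 12% higher and 11.7% lower. With 1 library left out the share over all genes ran from 14.9% (without control replicate 1 at 30 weeks) to 34.2% (without exposed replicate 2), and the same 4 members were called each time. For the same 4 members exposed and control samples did not overlap, where 27.3% of all genes did not. The median log2 fold change was 0.56 over the members and 0.008 over all genes tested. A lower level in such bulk samples may mean fewer cells that express a gene or less RNA in each cell, which cannot be told apart.

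**Figure D1:**
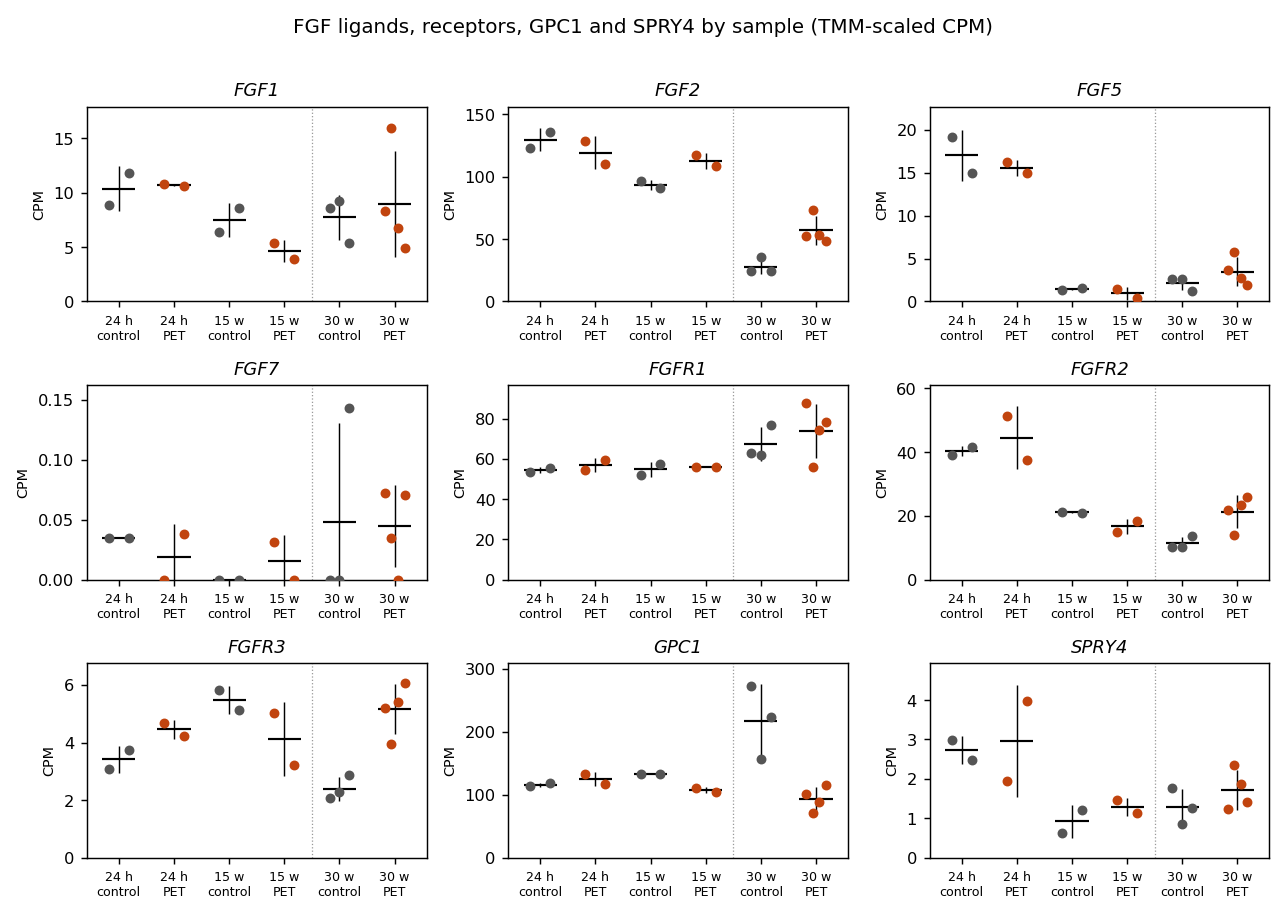
TMM-scaled CPM (linear axes from 0) of the 9 genes in every sample, grouped by time and exposure. Points are samples (grey control, orange exposed), horizontal bars group means, vertical bars 1 SD, and the dotted line parts batch 1 from batch 2. At 30 weeks the exposed samples lie above all controls for FGF2, FGFR2 and FGFR3 and below them for GPC1.

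FGF2, the basic fibroblast growth factor, had the highest level per transcript length of the 4 ligands. The gene (Entrez 2247) lies on chr4:122826682-122898236, plus strand, of GRCh38.p14. At 24 h it stood at 123.1 and 135.9 CPM in control cells and at 128.4 and 109.8 CPM in exposed cells. At 15 weeks the controls had 96.5 and 90.7 CPM and the exposed cells 117.2 and 108.2 CPM. After 30 weeks the 3 controls were at 24.6, 35.2 and 24.1 CPM and the 4 exposed samples at 52.3, 73.5, 53.1 and 48.6 CPM. Every exposed 30-week sample lay above every control of that time and below every sample of the earlier times.

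The difference at 30 weeks was a log2 fold change of 1.02 (SE 0.162, adjusted p = 0.00025, edgeR quasi-likelihood test with Benjamini-Hochberg adjustment). Controls had 28.0 ± 6.29 CPM (SD, n = 3) and exposed cells 56.8 ± 11.2 CPM (SD, n = 4). Exposed replicate 2 held the highest value, and without it the log2 fold change was 0.87. The 3′ end of FGF2 overlaps NUDT6 on the opposite strand by 5660 bases. The library kit keeps the strand, but the strand setting of the counting is not given in the sources used here. NUDT6 itself had 34 to 151 counts per library, against 572 to 3883 for FGF2.

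FGF1 (Entrez 2246, chr5:142592178-142698070, minus strand), the acidic factor that activates all FGF receptors, was low. It had 8.87 and 11.8 CPM in the 24 h controls, 10.8 and 10.6 CPM in the 24 h exposed cells, 6.35 and 8.61 CPM in the 15-week controls and 5.37 and 3.93 CPM in the 15-week exposed cells. The 30-week controls ranged from 5.37 to 9.24 CPM and the exposed samples from 4.89 to 15.9 CPM. The 30-week groups overlapped, and the log2 fold change was 0.22 (adjusted p = 0.664). Exposed replicate 2 set its sign, since the value without that sample was -0.22.

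FGF5 (Entrez 2250, chr4:80266588-80291017, plus strand), a ligand best known for ending the growth phase of the hair follicle, was mainly a gene of the early cells. It stood at 19.2 and 14.9 CPM in the 24 h controls and at 16.3 and 14.9 CPM in the 24 h exposed cells. At 15 weeks it was at 1.33 and 1.56 CPM in controls and at 1.49 and 0.422 CPM in exposed cells. Controls of 30 weeks had 2.67, 2.56 and 1.25 CPM and the exposed samples 3.62, 5.75, 2.68 and 1.90 CPM. No later sample came near the 24 h level, and exposed and control samples overlapped at 30 weeks (log2 fold change 0.70, adjusted p = 0.194, and 0.35 without exposed replicate 2). With the replicate number as a block the 30-week value was 0.92, and FGF5 was called (adjusted p = 0.0397).

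FGF7 (Entrez 2252, chr15:49423242-49488775, plus strand), the keratinocyte growth factor that mesenchymal cells make for epithelium, was at the limit of detection. It had at most 4 counts in any library and 0 in 7 of the 15, with no more than 0.143 CPM. Differences in it were not detectable at this depth. The gene lies within FAM227B, which itself had 16 to 44 counts.

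The receptors did not move together. FGFR1 was the most even of the members, with 52.2 to 59.3 CPM in all 8 samples of 24 h and 15 weeks. The 30-week controls were at 63.1, 62.0 and 76.9 CPM and the exposed samples at 87.8, 55.9, 74.4 and 78.1 CPM. The groups overlapped, and the log2 fold change of 0.14 (SE 0.137, adjusted p = 0.515) did not pass the test. Exposed replicate 2 was the lowest of its group, and without it the value was 0.25 (adjusted p = 0.0757). Without exposed replicate 1, the highest, it was 0.046 (adjusted p = 0.857), and 0 of 25 alternative analyses called FGFR1.

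FGFR2 (Entrez 2263, chr10:121478330-121598458, minus strand) was highest in the early cells. It stood at 39.1 and 41.5 CPM in the 24 h controls and at 51.5 and 37.6 CPM in the 24 h exposed cells, then at 21.3 and 21.0 CPM in the 15-week controls and at 15.0 and 18.4 CPM in the 15-week exposed cells. After 30 weeks the controls had 10.2, 10.3 and 13.7 CPM and the exposed samples 21.8, 14.1, 23.5 and 25.9 CPM. The lowest exposed sample, replicate 2, was only just above the highest control. The log2 fold change was 0.90 (SE 0.190, adjusted p = 0.00266), with 11.4 ± 1.99 CPM in controls (SD, n = 3) and 21.3 ± 5.12 CPM in exposed cells (SD, n = 4), and 1.06 without that replicate.

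FGFR3 (Entrez 2261, chr4:1793293-1808867, plus strand) was a minor receptor with 48 to 184 counts per library. It stood at 3.08 and 3.74 CPM in the 24 h controls, 4.68 and 4.23 CPM in the 24 h exposed cells, 5.81 and 5.13 CPM in the 15-week controls and 5.03 and 3.21 CPM in the 15-week exposed cells. By 30 weeks the controls were at 2.06, 2.27 and 2.86 CPM and the exposed samples at 5.22, 3.96, 5.42 and 6.06 CPM. The 30-week controls were the lowest of all 6 groups, and the exposed samples lay within the range of the 15-week cells or close to it. The log2 fold change was 1.10 (SE 0.207, adjusted p = 0.00109), with 2.40 ± 0.414 CPM in controls (SD, n = 3) and 5.16 ± 0.878 CPM in exposed cells (SD, n = 4).

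GPC1 (Entrez 2817, chr2:240435663-240468076, plus strand) encodes a proteoglycan held to the membrane by a lipid anchor, whose heparan sulfate chains present FGF2 to its receptors. It stood at 113.8 and 117.9 CPM in the 24 h controls, 132.7 and 116.6 CPM in the 24 h exposed cells, 133.2 and 132.8 CPM in the 15-week controls and 110.8 and 104.2 CPM in the 15-week exposed cells. The 30-week controls had 272.9, 156 and 223.2 CPM and the exposed samples 101.2, 70.4, 87.7 and 114.9 CPM. The controls of 30 weeks were above all other samples, and the exposed samples lay within the range of the earlier ones or below it.

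Between the 30-week groups GPC1 differed by a log2 fold change of -1.22 (SE 0.174, adjusted p = 9.3e-05). The means were 217 ± 58.7 CPM for controls (SD, n = 3) and 93.6 ± 19.0 CPM for exposed cells (SD, n = 4). Without exposed replicate 2, the lowest sample, the value was -1.10. GPC1-AS1 overlaps the gene and had 2 to 51 counts per library, against 2009 to 6345 for GPC1.

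SPRY4 (Entrez 81848, chr5:142310430-142325021, minus strand), a Sprouty protein that restrains receptor tyrosine kinase signaling, was low throughout, with 20 to 104 counts per library. Its mean was 2.73 CPM in control and 2.96 CPM in exposed cells at 24 h, 0.920 and 1.30 CPM at 15 weeks, and 1.29 ± 0.450 CPM (SD, n = 3) and 1.72 ± 0.502 CPM (SD, n = 4) at 30 weeks. The samples overlapped between exposed and control cells at all 3 times, and the 30-week log2 fold change of 0.42 did not pass the test (adjusted p = 0.404) and was 0.23 without exposed replicate 2.

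**Figure D2:**
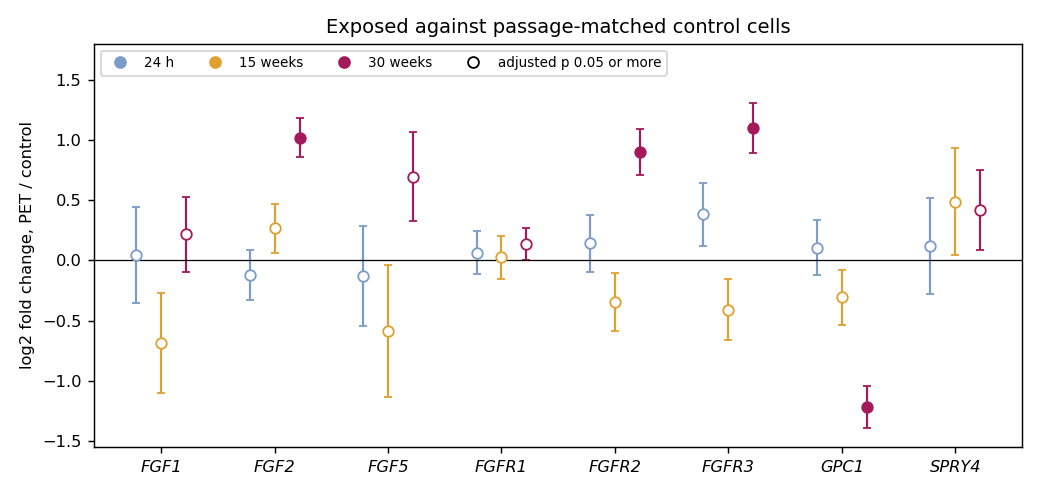
Log2 fold change of exposed against control cells at 24 h (blue), 15 weeks (yellow) and 30 weeks (purple) for the 8 tested members, with bars of 1 SE from the edgeR fit. Filled points have an adjusted p under 0.05: FGF2, FGFR2 and FGFR3 above 0 and GPC1 below 0, all at 30 weeks.

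At 24 h and 15 weeks 0 of the 8 tested members were called by edgeR, 0 had an unadjusted p under 0.05, and DESeq2 and limma-voom called 0 as well. Over all genes edgeR called 0 (0%) at each of these times, with 277 (1.65%) and 823 genes (4.92%) under 0.05 unadjusted. At 24 h DESeq2 and limma-voom also called 0 genes, and at 15 weeks they called 17 and 0. The log2 fold changes of the members lay between -0.13 and 0.38 at 24 h. At 15 weeks they lay between -0.69 for FGF1 and 0.49 for SPRY4, with GPC1 at -0.31, FGF2 at 0.27, FGFR2 at -0.34 and FGFR3 at -0.41. Exposed and control samples did not overlap at 15 weeks for FGF1, FGF2, FGFR2, FGFR3 and GPC1, in a comparison where 45.3% of all genes did not overlap. With the 15-week samples fitted alone, 1 member was called, GPC1 (adjusted p = 0.0426), in a fit that called 304 (1.96%) of all genes. The main fit shared its estimate of the spread over all 15 samples. Pairs of replicates differed by a chi-square per gene of 9.08 to 15.7 at 24 h and 15 weeks. At 30 weeks it was 16.3 to 135. The early tests thus carry a spread taken in part from the 30-week samples. A member not called at these times is not shown to be unchanged.

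Whether the exposure effect itself differed between 15 and 30 weeks was tested as the difference of the log2 fold changes, each taken within its own batch. It passed for 2 of 8 members, both with a higher effect at 30 weeks, where 4.74% of all genes passed, 2.66% higher and 2.08% lower. The effect on FGFR3 was higher at 30 weeks by 1.51 (SE 0.326, adjusted p = 0.0114) and that on FGFR2 by 1.25 (SE 0.306, adjusted p = 0.0266), both on the log2 scale. For GPC1 the difference was -0.91 (adjusted p = 0.0963) and for FGF2 0.75 (adjusted p = 0.134), neither of which passed. Of 25 alternative analyses 21 did not call GPC1 and 24 did not call FGF2, with adjusted p-values up to 0.281 and 0.427 and values as small as -0.52 and 0.46. GPC1 was called without exposed replicate 2 (-0.79, adjusted p = 0.0422) or control replicate 2 (-1.10, adjusted p = 0.0222) of 30 weeks, with no filter on low counts (adjusted p = 0.0489) and with the replicate number as a block (adjusted p = 0.0364), and FGF2 without control replicate 2 of 30 weeks (0.95, adjusted p = 0.0362). Leaving out a sample of 24 h or 15 weeks leaves 1 library in that group, which is then assumed to vary like the other groups, so that a call lost in this way may reflect the fewer samples. Without control replicate 1 at 15 weeks neither gene was called, at 1.23 for FGFR2 (adjusted p = 0.0962) and 1.41 for FGFR3 (adjusted p = 0.0675), and without exposed replicate 2 at 15 weeks they were at 1.40 (adjusted p = 0.0655) and 1.22 (adjusted p = 0.102). FGFR2 was also not called without control replicate 2 or exposed replicate 1 at 15 weeks, or without control replicate 1, control replicate 2 or exposed replicate 3 at 30 weeks, with adjusted p-values of 0.0536 to 0.16 and values between 1.10 and 1.26, close to the value with all samples.

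Passage alone was followed in the control cells, within batch 1 from 24 h to 15 weeks. FGF5, FGFR2 and SPRY4 fell, 3 of 8 members, where 24.9% of all genes were called, 12.7% higher and 12.2% lower. FGF5 fell from 17.0 to 1.45 CPM (log2 fold change -3.56, SE 0.486, adjusted p = 5.8e-05), FGFR2 from 40.3 to 21.2 CPM (-0.93, adjusted p = 0.00946) and SPRY4 from 2.73 to 0.920 CPM (-1.56, adjusted p = 0.0139). Exposed cells changed over the same interval by -4.01 for FGF5, -1.42 for FGFR2, -1.19 for SPRY4 and -1.20 for FGF1, all called and lower, 4 of 8 members, where 26% of all genes were called, 13.5% higher and 12.5% lower. The calls of SPRY4 (adjusted p = 0.046) and FGF1 (adjusted p = 0.043) in exposed cells were close to the threshold and held in 14 and 16 of 25 alternative analyses. Without exposed replicate 2 at 24 h, the highest sample, the value of SPRY4 was -0.59 (adjusted p = 0.487). In the controls FGFR2 was not called without replicate 1 (-0.94, adjusted p = 0.0589) or 2 (-0.92, adjusted p = 0.067) at 15 weeks or replicate 2 at 24 h (-0.89, adjusted p = 0.0574), all close to the value with every sample. SPRY4 was not called without replicate 1 at 15 weeks (-1.18, adjusted p = 0.142) or at 24 h (-1.43, adjusted p = 0.0843). The count of members called was 5 in the controls without exposed replicate 2 at 30 weeks, with FGF2 (adjusted p = 0.0248, against 0.11 with it) and FGFR3 (adjusted p = 0.0316, against 0.0648 with it) added and 33.4% of all genes called. It was 2 in exposed cells without either 15-week exposed sample, either 24 h control or exposed replicate 2 at 24 h, where 14.6% to 23.8% of all genes were called.

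From 15 to 30 weeks, a step that also crosses the batches, FGF2, FGFR2 and FGFR3 fell and GPC1 rose in control cells, 4 of 8 members, where 50.3% of all genes were called, 25.6% higher and 24.6% lower. The log2 fold changes were -1.74 (SE 0.186, adjusted p = 3e-06) for FGF2, -0.89 (adjusted p = 0.00306) for FGFR2, -1.18 (adjusted p = 0.000638) for FGFR3 and 0.71 (adjusted p = 0.0112) for GPC1. The 4 of 8 members called are near the share of all genes. These are the 4 genes that differed between exposed and control cells at 30 weeks. That comparison shares the 30-week controls with this one, so the match is in part built in. In exposed cells the same 4 genes had log2 fold changes of -0.99 for FGF2 (adjusted p = 0.00029), 0.35 for FGFR2 (adjusted p = 0.186), 0.32 for FGFR3 (adjusted p = 0.248) and -0.20 for GPC1 (adjusted p = 0.428). Of the 4, FGF2 passed the test there. FGFR2 was called without exposed replicate 2 of 30 weeks (0.51, adjusted p = 0.0105) and with surrogate variables (0.61, adjusted p = 0.0102). In control cells FGFR1 was called without that replicate (0.30, adjusted p = 0.041) and not with it (adjusted p = 0.146). The call of GPC1 in control cells was lost without control replicate 1 at 30 weeks (0.51, adjusted p = 0.0601) and with surrogate variables (0.21, adjusted p = 0.344). It was also lost without control replicate 1 (0.71, adjusted p = 0.0649) or 2 (0.70, adjusted p = 0.0674) at 15 weeks, where the value hardly moved.

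Other members changed in the exposed cells over that step, where 46% of all genes were called, 23.3% higher and 22.7% lower. FGF5 rose from 0.955 to 3.49 CPM (log2 fold change 1.85, SE 0.470, adjusted p = 0.00448), although without exposed replicate 2 at 15 weeks, the lowest sample, it was not called (1.22, adjusted p = 0.086). FGF1 (0.95, adjusted p = 0.0459) and FGFR1 (0.41, adjusted p = 0.0435) were near the threshold and called in 9 of 25 alternative analyses each. Without exposed replicate 2 at 15 weeks 1 of the 8 members was called over this step, where 29.3% of all genes were. Without exposed replicate 2 at 30 weeks FGF1 was at 0.51 (adjusted p = 0.0938).

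The order of the groups by mean level differed from gene to gene. For FGF2 it ran from 24 h control (129 CPM) through 24 h exposed (119 CPM) and 15-week exposed cells (113 CPM), neighbours that overlapped, to 15-week control (93.6 CPM), 30-week exposed (56.8 CPM) and 30-week control cells (28.0 CPM), which did not overlap with their neighbours. For GPC1 the 30-week controls stood alone at the top, and 15-week exposed and 30-week exposed cells, at 107 and 93.6 CPM, overlapped at the bottom. For FGFR3 the 5 other groups overlapped with their neighbours in the order, and the 30-week controls stood alone at the bottom. For FGFR1 the 30-week groups came first and overlapped with each other, the 30-week controls lay above all earlier samples, and the 4 earlier groups overlapped.

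Levels of different genes were compared per kilobase of the canonical transcript (GENCODE v44). GPC1 was the first of the 9 in all 6 groups, from 25.2 CPM per kb in 30-week exposed cells to 58.5 CPM per kb in 30-week controls. FGF2 was the second at 24 h and 15 weeks, between 14.1 and 19.5 CPM per kb, and the third at 30 weeks, with 4.21 CPM per kb in controls and 8.54 CPM per kb in exposed cells. FGFR1 took the second place there with 11.8 and 13.0 CPM per kb. The gene counts pool all splice forms, so the receptor forms that bind different ligands were not told apart.

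FGFR4, the remaining FGF receptor with a kinase domain, had the largest fold change of the 4 receptors at 30 weeks. It had 1.75 to 5.71 CPM in the 8 samples of 24 h and 15 weeks. The 30-week controls were at 29.2, 19.9 and 32.6 CPM and the exposed samples at 5.61, 4.28, 5.49 and 6.73 CPM. The exposed samples were thus close to the earlier ones and the controls far above them. The log2 fold change was -2.30 (SE 0.222, adjusted p = 1.43e-06). FGFR4 is known as a receptor of muscle precursor cells, and the part of the muscle markers given above in its level was not tested.

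The share of the 4 receptors therefore differed between the groups. Per kilobase, FGFR1 made up 48.1% and FGFR2 43.9% of receptor transcripts in 24 h controls, with FGFR3 at 3.99% and FGFR4 at 4.03%. In 15-week controls FGFR1 was at 56.8% and FGFR2 at 27.1%. In 30-week controls FGFR4 reached 37.0% (32.0% to 40.7% over the 3 samples) and FGFR2 was down to 10.4%, whereas in 30-week exposed cells FGFR4 was at 8.71% (7.84% to 9.50% over the 4 samples) and FGFR2 at 22.2%. The 30-week shares of FGFR2, FGFR3 and FGFR4 did not overlap between exposed and control samples, and neither did that of FGFR1, at 59.9% to 66.6% in exposed and 47.7% to 54.2% in control cells. The 4 shares of a sample depend on each other, so a smaller share of FGFR4 raises the others. The level of FGFR1 itself overlapped between the 30-week groups and did not pass the test (log2 fold change 0.14). The sum of the 4 receptors was 23.6 ± 3.82 CPM per kb (SD, n = 3) in 30-week controls and 20.6 ± 3.73 CPM per kb (SD, n = 4) in exposed cells, a difference smaller than the spread.

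**Figure D3:**
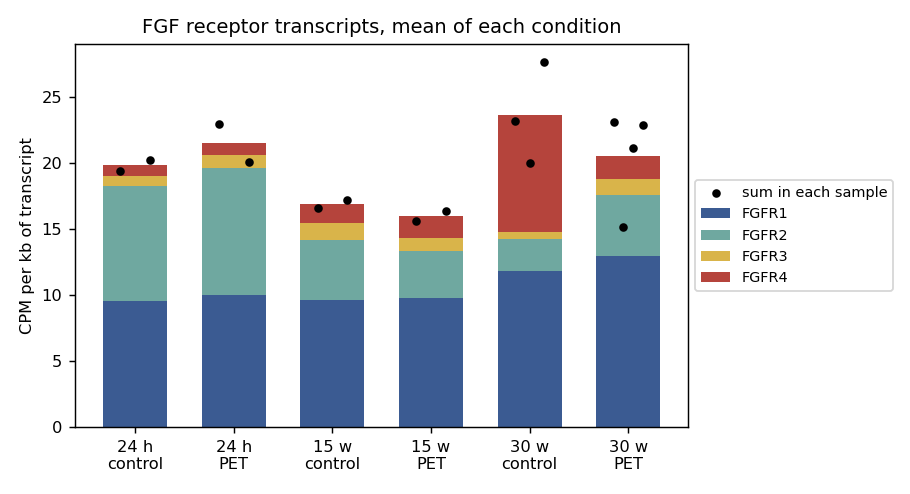
Mean level of FGFR1 to FGFR4 in each group in CPM per kilobase of transcript, stacked from 0, with the sum in every sample as a black point. The FGFR4 segment is large in 30-week controls, 8.81 of 23.6 CPM per kb, and 1.79 of 20.6 CPM per kb in 30-week exposed cells.

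The rest of the pathway was described with 5 lists of 83 genes in all, of which 63 were tested. At 30 weeks 16 of the 63 were called, 8 higher and 8 lower, or 25.4% beside 23.7% of all genes, and the median log2 fold change was -0.08. That share is near the background. Leaving out control replicate 1 at 30 weeks gave 9 calls, with 14.9% of all genes called, and leaving out exposed replicate 2 gave 23, with 34.2%. At 24 h and 15 weeks edgeR called 0 of the 63, with 1 and 6 under an unadjusted p of 0.05.

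Of the other 18 FGF genes, 4 passed the filter and 3 were called at 30 weeks, 2 higher and 1 lower, beside 12% and 11.7% of all genes. FGF18, a ligand of FGFR3 and related receptors, had 1 to 5 counts per control and 9 to 21 per exposed sample (log2 fold change 1.86, SE 0.539, adjusted p = 0.0201). On the log2 scale FGF14 was higher by 0.71 (adjusted p = 0.00308) and FGF11 was lower, at -1.10 (adjusted p = 0.0321). FGF11 and FGF14 belong to the intracellular factors that bind sodium channels rather than FGF receptors. FGF18 was not called without control replicate 1 (1.497, adjusted p = 0.0906) or exposed replicate 1 (1.61, adjusted p = 0.0618) of 30 weeks. FGF11 was not called without control replicate 1 or 3 or exposed replicate 1 or 3 (adjusted p = 0.0641 to 0.0953), although its value stayed between -1.10 and -0.94. With surrogate variables neither was called (1.48, adjusted p = 0.113 for FGF18 and -0.98, adjusted p = 0.0667 for FGF11).

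Among 17 tested receptors, coreceptors and binding proteins, 1 was higher and 5 were lower in exposed cells, beside 12% and 11.7% of all genes. Besides FGFR4, the glypican GPC6 was lower, with 2.32, 4.37 and 3.01 CPM in controls and 0.688, 1.65, 0.904 and 1.16 CPM in exposed cells (log2 fold change -1.56, SE 0.253, adjusted p = 0.00031). GPC5 was called at -2.86 with 2 to 17 counts per control and 0 to 4 per exposed sample, overlapping groups and an adjusted p of 0.0497, and 14 of 23 alternative analyses did not call it. The syndecan SDC2 was higher by 0.53 (adjusted p = 0.0104), a call that was lost with the 30-week samples fitted alone (0.52, adjusted p = 0.051). SDC1, another syndecan, and HSPG2, the matrix proteoglycan perlecan, complete the count and were named after their values were seen, with log2 fold changes of -0.59 (adjusted p = 0.014) and -0.95 (adjusted p = 0.0419). SDC1 was not called without control replicate 1 (-0.38, adjusted p = 0.119) or with the 30-week samples fitted alone (-0.59, adjusted p = 0.0549), and 12 of 25 alternative analyses did not call HSPG2, which was at -0.33 (adjusted p = 0.271) with surrogate variables.

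GPC4 and FGFBP1, also named after their values were seen, were found at 24 h and hardly later, in both arms. GPC4 had 38 to 74 counts per sample at 24 h and 0 in all 11 later libraries. FGFBP1, a secreted carrier of FGF2, had 113 to 143 counts at 24 h and at most 5 later.

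Enzymes that build and edit heparan sulfate were called in 5 of 12 cases, 3 higher and 2 lower, beside 12% and 11.7% of all genes. SULF1 and SULF2 remove sulfate groups from finished chains at the cell surface, which FGF2 and its receptors bind. SULF1 had 0 counts in the 4 samples of 24 h and at most 4 at 15 weeks. At 30 weeks it had 5, 2 and 10 counts in the controls and 30, 42, 69 and 46 in the exposed samples. SULF1 thus passed the filter on low counts through the exposed 30-week samples, where it was high, and its counts are given as a description. Apart from it, 4 of the other 11 enzymes were called, 2 higher and 2 lower.

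SULF2 fell with time in both arms (log2 fold change -1.06 in controls, adjusted p = 0.00564, and -0.97 in exposed cells, adjusted p = 0.0098), with 44.7 to 52.4 CPM at 24 h and 22.3 to 27.8 CPM at 15 weeks. After 30 weeks controls were at 6.45, 6.50 and 7.30 CPM and the exposed samples at 16.4, 7.60, 12.9 and 16.7 CPM, with replicate 2 just above the controls (log2 fold change 0.99, SE 0.207, adjusted p = 0.00255). EXT1, a subunit of the enzyme that extends the chain, had 120.5, 111.5 and 116.3 CPM in the 30-week controls and 238.9, 158.5, 212.5 and 212.9 CPM in exposed cells (log2 fold change 0.82, SE 0.127, adjusted p = 0.000198). It had 186 to 216 CPM in all 8 earlier samples, and the 30-week controls lay below all other samples. EXTL2, a related glycosyltransferase, was lower, at -0.60 (adjusted p = 0.0356), as was HS2ST1, which adds sulfate to the uronic acid, at -0.31 (adjusted p = 0.0499), with 6 of 25 alternative analyses not calling EXTL2 and 18 of 25 alternative analyses not calling HS2ST1. EXTL2 lost its call without any one of 30-week control replicates 1 and 2 and exposed replicates 1, 3 and 4, with adjusted p-values of 0.0685 to 0.158 and values between -0.63 and -0.44.

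Of 14 signal adaptors and kinases 1 was called at 30 weeks, beside 23.7% of all genes, and 4 had an unadjusted p under 0.05. The called gene was PLCG1, a phospholipase that docks on the activated receptor, with a log2 fold change of 0.60 (SE 0.197, adjusted p = 0.0379). Its 30-week groups overlapped, since exposed replicate 2 was at 64.6 CPM and control replicate 3 at 91.5 CPM, and 14 of 25 alternative analyses did not call it. The other 13 lay between -0.25 and 0.46.

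Of 16 feedback inhibitors and target genes 1 was called at 30 weeks, beside 23.7% of all genes, namely DUSP4, a phosphatase that inactivates MAP kinases in the nucleus. DUSP4 fell by 15 weeks in both arms (log2 fold change -2.88 in controls, adjusted p = 3.35e-08, and -2.95 in exposed cells, adjusted p = 2.63e-08), with 145.9 to 161.5 CPM at 24 h and 17.9 to 23.3 CPM at 15 weeks. The 30-week controls had 9.12, 10.5 and 11.8 CPM and the exposed samples 28.4, 29.8, 25.7 and 20.3 CPM, a log2 fold change of 1.31 (SE 0.148, adjusted p = 8.63e-06). Genes often read as a measure of FGF signaling, named here after their values were seen, did not pass the test. SPRY2 was at -0.04, DUSP6 at -0.20, ETV4 at 0.35, ETV5 at -0.39 and SPRY1 at -0.47 on the log2 scale.

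**Figure D4:**
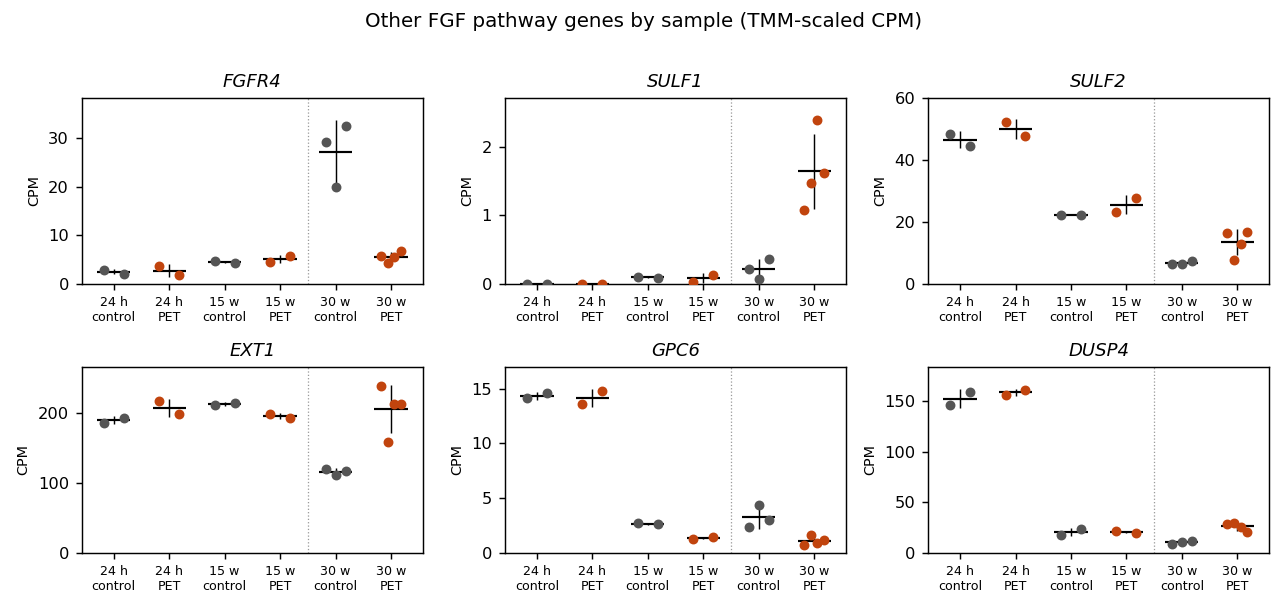
TMM-scaled CPM (linear axes from 0) of FGFR4, SULF1, SULF2, EXT1, GPC6 and DUSP4 in every sample, drawn as for the members: grey control, orange exposed, bars for the mean and 1 SD, dotted line between the batches. At 30 weeks exposed samples lie above all controls for SULF1, SULF2, EXT1 and DUSP4 and below them for FGFR4 and GPC6.

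For FGF2, FGFR1 and GPC1 the genes with the most similar pattern were taken by Pearson's correlation of log2 CPM over the 15 samples, among 13370 genes. The points share batch, time and scaling, so the values are descriptions. FGF2 was most like SRPK1 (r = 0.987), CEBPG (r = 0.985) and MET (r = 0.984). FGFR1 was most like DPF2 (r = 0.963), MYO1C (r = 0.962) and IGF2R (r = 0.959), and GPC1 was most like EPHB4 (r = 0.953), CDK5R1 (r = 0.912) and MRC2 (r = 0.901).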

How the data were processed

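RNA of 15 BEAS-2B samples was sequenced from total RNA libraries with a strand-keeping kit. The authors trimmed adapters, discarded reads under 20 bases with Rfastp, mapped the remainder to GRCh38 and counted reads per gene with Rsubread (featureCounts and hg38 in the submitters' processing notes). The values used are the raw counts that the authors deposited, without normalization. Strand setting, treatment of reads with several matches and versions of the trimming, mapping and counting tools are not given in the sources used here. All columns were used. Each sample had 23143202 to 31459990 counts, which limits precision for genes under 1 CPM.

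After filterByExpr 16740 genes were kept. Libraries were scaled by TMM, and all 15 samples entered the quasi-likelihood test of edgeR 4.0.16 (R 4.3.3) with 1 mean per condition. Benjamini-Hochberg adjustment ran over all tested genes (threshold 0.05). SE is the log2 fold change divided by the root of F. Values in log2 CPM had a prior count of 2 added. The study's own fit, limma-voom with surrogate variables, was an alternative, since it does not name their number. The other alternatives were DESeq2 1.42.0, limma-voom (limma 3.58.1), compared conditions fitted alone, upper-quartile and RLE scaling, no filter or a minimum of 10 counts per sample, counts without 6 abundant small noncoding RNAs, the replicate number as a block, and each of the 15 samples left out; sva 3.50.0 (method be) gave 2 surrogate variables. The procedure was tested on simulated data.

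Members and lists were chosen with earlier results of these data known. Named are all members, up to 3 called genes per pathway list and direction at 30 weeks with the largest log2 fold changes, and the 3 genes most like FGF2, FGFR1 and GPC1 among those with a mean of at least 1 CPM. Sequences and positions come from RefSeq (GRCh38.p14), lengths from GENCODE v44. Replicates differed by more than sampling noise (chi-square per gene of at least 9.08).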

Additional observations from a re-analysis of the deposited data

Results flagged for a closer look

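The exposure effect differed between 15 and 30 weeks for 2 of 8 tested members and 3 of 63 tested pathway genes (4.76%), beside 4.74% of all genes, by edgeR's test of the difference with Benjamini-Hochberg adjustment over all genes. On the log2 scale the effect at 30 weeks minus that at 15 weeks was 1.25 for FGFR2 (adjusted p = 0.0266), 1.51 for FGFR3 (adjusted p = 0.0114), -2.50 for FGFR4 (adjusted p = 0.000766), 0.94 for EXT1 (adjusted p = 0.0124) and 1.31 for DUSP4 (adjusted p = 0.00304). Each effect lies within its own batch. EXT1 was not called without any one of the 4 samples of 15 weeks (adjusted p = 0.0593 to 0.0879), which leaves 1 library in that group, although its value stayed between 0.92 and 0.96. FGFR2 and FGFR3 were not called without control replicate 1 of 15 weeks (1.23 and 1.41) or exposed replicate 2 of 15 weeks (1.40 and 1.22). For FGFR3 the effects at 24 h and 15 weeks pointed in opposite directions, with both exposed samples above both controls at 24 h (0.38) and both below at 15 weeks (-0.41), and that difference was not tested. Groups of 2 samples often separate in this way, as 45.3% of all genes did at 15 weeks. At 24 h FGFR3 was the 1 of 8 tested members that did. It was called at neither time. Over 25 alternative analyses the FGFR3 effect ran from 0.245 to 0.529 at 24 h and from -0.765 to -0.119 at 15 weeks. The single-sample test was run on 22 sets of the 4 exposed 30-week samples, 1 for each named gene that could be tested, by Dixon's ratio at its 95% critical value, and marked 0 samples, although chance alone marks about 1 set in 20.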

How the results depend on the processing

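Of 1600 log2 fold changes of members under 25 alternatives, 1482 kept direction and side of the threshold, 71 lost the call, 20 gained it and 27 reversed, all 27 of values that were not called. The calls of FGF2, FGFR2, FGFR3 and GPC1 at 30 weeks held in 25 of 25. At 15 weeks 1 member was called with its conditions fitted alone (1.96% of all genes). For control cells from 24 h to 15 weeks 6 were called with surrogate variables (39.1% of all genes) and 6 with the conditions fitted alone (43.7%), and for exposed cells from 15 to 30 weeks 2 with the conditions fitted alone (41.9%) and 2 without small noncoding RNAs (45.7%). Of the pathway genes 9 were called at 30 weeks with these conditions fitted alone (15.3%). The causes were not tested.

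Leaving out 1 sample at a time, members called ranged from 4 to 4 at 30 weeks, 0 to 3 for the change of the exposure effect, 1 to 5 and 2 to 4 from 24 h to 15 weeks in control and exposed cells, and 3 to 5 and 1 to 4 from 15 to 30 weeks; pathway genes ranged from 9 to 23. Correlations of same-numbered deviations were -0.06 at 24 h, 0.029 at 15 weeks and -0.118, 0.303 and 0.098 at 30 weeks. Differently numbered samples of 30 weeks ran from -0.481 to 0.359. With 2 samples per arm the deviations mirror each other, so the earlier times give 1 value each. These values cannot decide whether replicate numbers pair the samples. With the number as a replicate block 5 members were called at 30 weeks, FGF5 added (adjusted p = 0.0397), 3 for the change of the effect, GPC1 added, and 15 pathway genes.

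Reversed values, none called, are given as ranges over samples left out. At 24 h they were -0.147 to 0.267 for FGF1, -0.298 to 0.057 for FGF5, -0.107 to 0.354 for FGFR2 and -0.479 to 0.529 for SPRY4. At 15 weeks they were -1.765 to 0.045 for FGF5 and -0.037 to 0.095 for FGFR1, which was at -0.02 with surrogate variables. At 30 weeks FGF1 ran from -0.216 to 0.427 and was at -0.185 with surrogate variables. The change of effect of SPRY4 ran from -0.614 to 0.313. From 24 h to 15 weeks FGFR1 ran from -0.06 to 0.074 in controls, where it was at -9.3e-05 with DESeq2 and -0.00011 with RLE scaling. In exposed cells FGF2 ran from -0.188 to 0.046, FGFR3 from -0.469 to 0.179 and FGFR1 from -0.079 to 0.031, with 0.022 under upper-quartile scaling. From 15 to 30 weeks FGF1 in controls ran from -0.157 to 0.279 and was at -0.009 with surrogate variables. SPRY4 at 24 h also reached -0.005 without control replicate 2. Changes of FGF7, FGF18, GPC5 and SPRY4, all with low counts, were poorly resolved, and the part of depth in this was not tested.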
